A study of Mus musculus with 2 samples.

Results

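Delta cells, the somatostatin-producing endocrine cells of the pancreas, were taken from single-cell expression libraries of mouse pancreas at embryonic day 14.5. They were chosen by their hormone reads. A barcode was a delta cell if it held at least 3000 UMIs (unique molecular identifiers, each standing for 1 captured RNA molecule), under 10% of them mitochondrially encoded, and at least 10 Sst UMIs per 10000. Sst also had to exceed Gcg, Ins1 plus Ins2, and Ghrl, the barcode could hold at most 1 UMI of the acinar factors Rbpjl and Ptf1a and at most 2 of the endocrine progenitor factor Neurog3, and 3 collagen genes (Col1a1, Col1a2 and Col3a1) had to stay under 5 UMIs per 10000. This gave 50 delta cells out of 46917 barcodes, 26 from Control and 24 from Null. The Control library pooled 8 pancreata of genotypes Fgf9 +/+ and +/- from 3 litters. The Null library pooled 3 pancreata of genotype Fgf9 -/-, also from 3 litters, where a LacZ cassette interrupts the gene of this secreted fibroblast growth factor. All mice were on a C57BL/6J background, and every live, DAPI-negative cell that passed a size gate was collected, so the libraries were not enriched for endocrine cells. Each genotype is 1 pooled library, so no difference between them has a replicate check.

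Somatostatin is a peptide that acts on neighbouring islet cells through G-protein-coupled receptors and lowers the release of insulin and glucagon. In the mouse, delta cells arise from Neurog3-positive progenitors in the epithelial trunk, and the homeobox factor Hhex is required for them to form and to keep making Sst. Isl1, a LIM-homeobox factor, is shared by all islet cell types, while Irx factors mark alpha cells and Mafa and Slc2a2 mark maturing beta cells.

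Because the cells were selected on Sst, the stretch that drives this gene in endocrine cells is shown first. That of Scg2, the granule protein secretogranin II, stands beside it as an example. Scg2 was higher in delta cells than in the mean of the other hormone cells, though not than every other class sum (below). Both windows are the 250 bases before the start in RefSeq (GRCm38.p6), read on the minus strand, Sst from chr16:23890845-23891094 and Scg2 from chr1:79440027-79440276. Capitals mark the 8-base cyclic AMP response element TGACGTCA, which reads the same on both strands and begins 48 bases before the Sst start and 68 bases before the Scg2 start.
Sst promoter: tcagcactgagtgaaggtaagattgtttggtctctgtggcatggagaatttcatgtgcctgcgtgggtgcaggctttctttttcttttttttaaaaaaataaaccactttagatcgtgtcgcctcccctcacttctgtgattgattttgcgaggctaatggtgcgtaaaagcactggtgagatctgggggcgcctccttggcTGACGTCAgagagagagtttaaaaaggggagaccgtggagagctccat
Scg2 promoter: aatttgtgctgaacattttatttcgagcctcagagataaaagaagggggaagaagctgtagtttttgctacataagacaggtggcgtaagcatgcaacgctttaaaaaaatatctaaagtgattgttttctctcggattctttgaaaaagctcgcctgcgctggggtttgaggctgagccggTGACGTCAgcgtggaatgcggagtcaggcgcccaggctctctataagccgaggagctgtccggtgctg
The element was in 508 of 32851 windows of this length (1.55%), and in 307 of the 9177 tested genes that had a window (3.35%). The genes higher in delta cells than in other hormone cells held it in 17 of 316 cases (5.38%), and the genes lower there in 16 of 297 (5.39%), so it did not set the higher genes apart from the lower ones. The windows of Hhex, Isl1, Rbp4, Pyy, Ppy, Iapp, Gcg, Ins1 and Ghrl do not hold these letters. A match is a description of the sequence, not a measured binding site.

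Every delta cell held reads of endocrine genes. Hhex, a delta cell marker that did not choose them, was found in nearly all, and so was Isl1, which all islet cells share and which therefore does not set delta cells apart. Sst itself, which chose them, lay at 11.97, 62.9 and 758 UMIs per 10000 (lowest, median, highest) in the 26 Control cells and at 13.8, 171 and 729 in the 24 Null cells. The ranges of the libraries overlapped almost fully. Hhex (ENSMUSG00000024986, GRCm38 chromosome 19, 37434810 to 37440731, plus strand) had a UMI in 49 of 50 cells. Its values per 10000 were 3.70, 10.2 and 17.9 in Control and 0, 12.2 and 32.1 in Null cells. Isl1 had a UMI in all 50 cells, at 3.97, 15.4 and 30.2 in Control and 5.73, 15.3 and 58.9 in Null cells. The 1 cell without Hhex was a Null cell with 252 Sst UMIs, 28 UMIs of Pdx1, 335 of Iapp and 4 of Pax4. It also held 4 UMIs of Mafa and 19 of Nkx6-1. It thus combined Sst with several genes of the beta lineage.

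**Figure D1:**
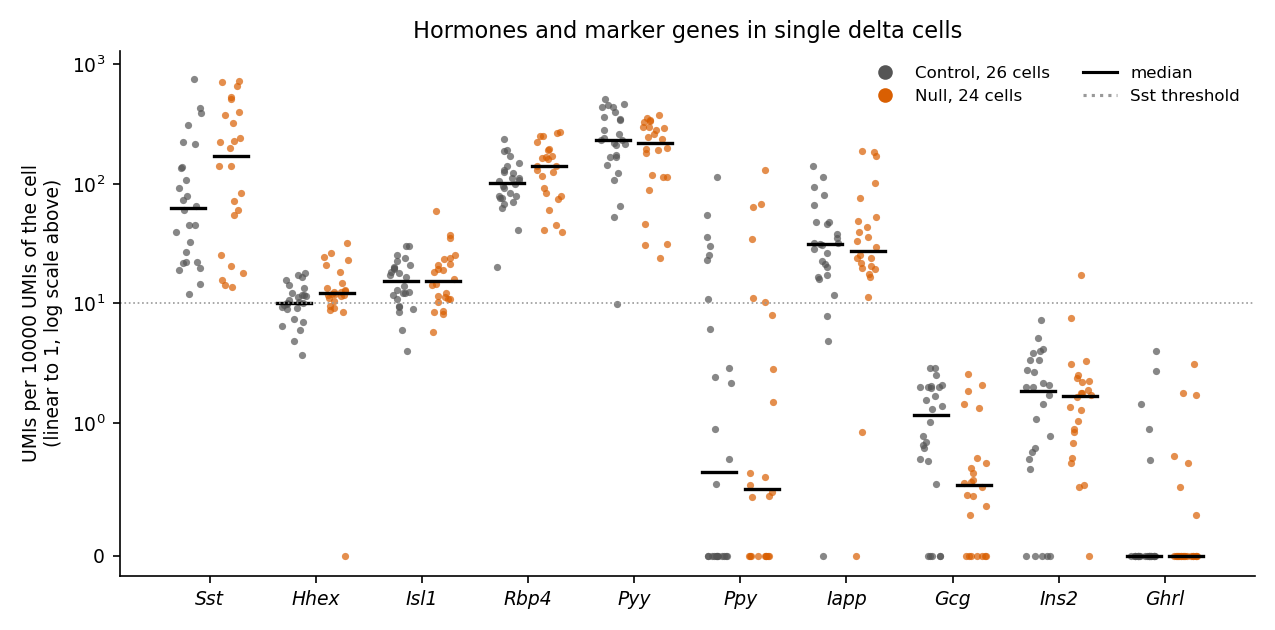
UMIs per 10000 (vertical axis, linear near 0 and logarithmic above) of 10 genes in each of the 26 Control and 24 Null delta cells. Each point is a cell, bars are medians, and the dotted line is the Sst limit of 10 that chose the cells. Hhex, Isl1, Rbp4 and Pyy were found in nearly every cell, Ppy was spread from 0 to 130, and Gcg stayed under 3.

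Retinol-binding protein 4, Rbp4, a carrier of vitamin A that is abundant in delta cells, also lay high. It had 20.1, 102 and 236 UMIs per 10000 in Control and 39.5, 141 and 271 in Null delta cells. Of the barcodes with Sst of at least 10 per 10000, 29 in Control and 26 in Null, 4 failed the acinar, collagen or Neurog3 limits and 1 Null barcode had another hormone above Sst. Just inside the Sst limit, 2 Control cells (11.97 and 14.59 per 10000) and 2 Null cells (13.84 and 14.28) lay between 10 and 15. Just outside it, no Control barcode and 3 Null barcodes lay between 5 and 10, the lowest at 5.05 and the highest at 8.11, and all 3 held Hhex. Between 1 and 5 there were 2 barcodes in each library, again all with Hhex. Few barcodes thus lay near the limit. In alpha, beta and epsilon cells chosen by mirrored rules (Gcg, Ins1 plus Ins2, or Ghrl as the largest hormone), median Sst was 0, and the highest value was 3.15 in Control and 68.6, in 1 beta cell, in Null.

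Delta cells were 26 of 675 hormone cells in Control (3.85%, exact Clopper-Pearson 95% interval 2.53 to 5.59) and 24 of 436 in Null (5.51%, 3.56 to 8.08). These intervals overlap and cover counting error only, and the sort and the UMI minimum can set both shares. The other classes held 297 and 155 alpha, 281 and 213 beta, and 71 and 44 epsilon cells (Control and Null). Delta cells had a median of 12579.5 UMIs and 4010.5 genes in Control and 17311.5 UMIs and 4818.5 genes in Null. The median mitochondrially encoded share was 2.82% and 2.28%, just under the 2.90% to 3.49% of the other Control and the 2.35% to 2.77% of the other Null classes. Over all barcodes the libraries held 339959625 (Control) and 271129120 UMIs (Null), the libraries shared 180 barcodes, and none of the shared ones was a hormone cell. Scrublet, a doublet caller, marked 0 of the 50 delta cells, 7.86% of the Control barcodes it scored and 3.47% of the Null ones.

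Within the 50 cells, Sst varied widely while Hhex did not vary with it. Cells were divided at 100 Sst UMIs per 10000 into 27 lower cells (17 Control, 10 Null) and 23 higher ones (9 Control, 14 Null). Median Hhex was 11.3 in the lower and 12.03 in the higher cells. Median Rbp4 was 108 and 151. Fev, a factor of endocrine precursors, had a UMI in 14 of the 27 lower cells and in 9 of the 23 higher ones. As a description over all 50 cells, which share only 2 libraries, Spearman's rho with Sst was 0.42 for Rbp4 (0.15 within Control, 0.44 within Null) and 0.04 for Hhex. The total UMI count had -0.14 over all cells and -0.58 within Null, so in the Null library cells with more Sst were also the shallower ones.

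Delta cells carried RNA of the peptide YY family besides Sst. Pyy, peptide YY, and Ppy, pancreatic polypeptide, are neighbouring genes on the minus strand of chromosome 11 (GRCm38, 102106676 to 102107832 and 102099930 to 102101319). Pyy had 9.87, 232 and 515 UMIs per 10000 in Control and 23.9, 219 and 378 in Null delta cells, and no cell was without it. Delta cells thus all held a second peptide RNA. Ppy had 0, 0.63 and 113 in Control and 0, 0.50 and 130 in Null cells, with a UMI in 29 of 50. It was uneven, with 14 cells (7 in each library) holding at least 10 UMIs each, between 8.06 and 130 per 10000. In those 14 cells median Sst was 40.7, against 137 in the other 36, and median Cdkn1a, which encodes the cell cycle inhibitor p21, was 2.82 against 6.80. Hhex (10.9 and 11.6) and Gcg (0.87 and 0.68) had similar medians in both sets. The cells with much Ppy thus had Hhex and very little Gcg like the rest, where the rule kept Gcg below Sst in every cell.

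To read second hormones at equal depth, each cell was thinned to 3000 UMIs, and the same was done in 591 Control and 538 Null collagen-rich cells (median 9204 and 18070 UMIs), which should lack hormones and so show free RNA. Pyy was detected in 100% of delta cells in both libraries (exact 95% intervals 86.8 to 100 and 85.8 to 100), against 28.3% and 10.8% of collagen-rich cells. Iapp, amylin, was detected in 96.2% (80.4 to 99.9) and 95.8% (78.9 to 99.9), against 17.1% and 7.99%. Both lay far above the free RNA level. Ppy was detected in 34.6% (17.2 to 55.7) and 33.3% (15.6 to 55.3) of delta cells and in 0% and 0.186% of collagen-rich cells, where 0 of 591 allows up to 0.508%. Cholecystokinin, Cck, was detected in 57.7% (36.9 to 76.7) and 33.3% (15.6 to 55.3), against 3.38% and 0.744%. The rule that chose the delta cells kept Gcg, Ins1 plus Ins2, and Ghrl below Sst in each of them. Their values are thus shaped by the choice and are given as a description, not as a contrast with the peptides above. Gcg was detected in 19.2% (6.56 to 39.4) and 8.33% (1.03 to 27.0) of delta cells, against 42.3% and 13.9% of collagen-rich cells. It lay below the background beyond counting error in Control, while in Null the background fell within the interval. Ins1 (30.8% and 20.8%, against 20.98% and 14.7%) and Ghrl (11.5% and 8.33%, against 5.92% and 5.39%) had the background within their counting intervals. Ins2 was detected in 42.3% of Control delta cells, against 42.5%, and in 58.3% (36.6 to 77.9) of Null delta cells, against 29.4%. Unthinned, Gcg had a UMI in 80.8% and 70.8% of delta cells and in 77.3% and 54.5% of collagen-rich cells.

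**Figure D2:**
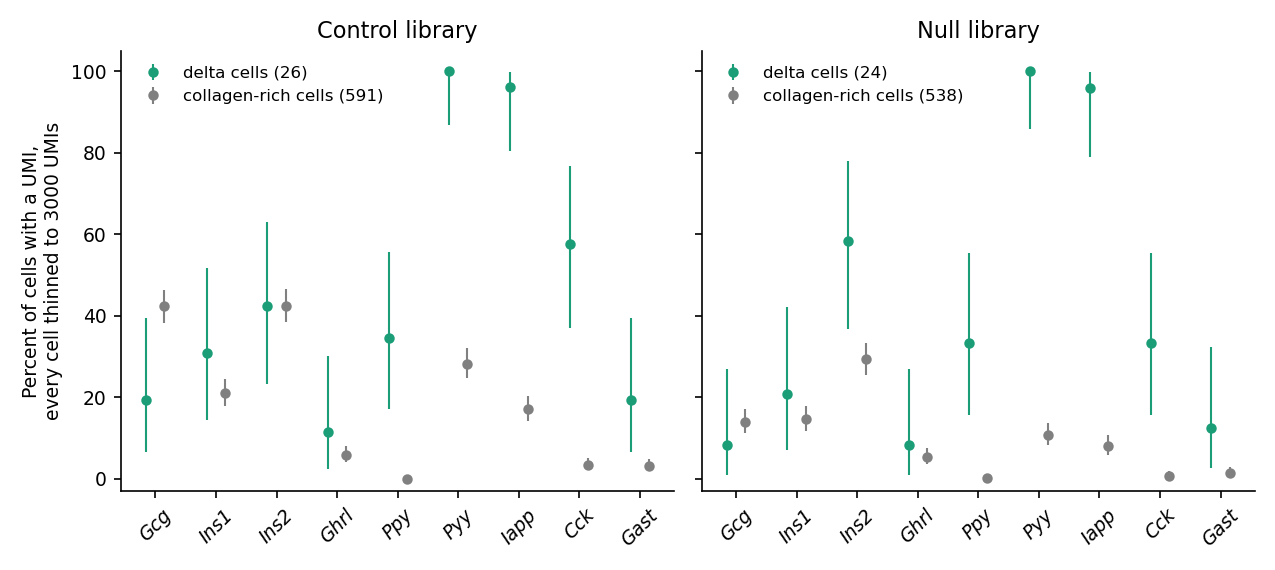
Share of cells with a UMI of each second hormone after thinning to 3000 UMIs (vertical axis, percent, with exact 95% intervals), in delta cells and in collagen-rich cells of the Control and Null libraries. Pyy, Iapp, Ppy and Cck in delta cells lie above the collagen-rich cells in both libraries, and Gcg lies below them, in Null within the counting interval. Gcg, Ins1, Ins2 and Ghrl were read by the rule that chose the delta cells.

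Delta cells were then compared with the other hormone cells of the same libraries to see which genes other than the hormones set them apart. UMIs were summed per library and class into 8 sums and given as CPM (UMIs scaled to a common total of the sum, without the genes of the rule, mitochondrially encoded and haemoglobin genes). The delta sums held 308159 (Control) and 414441 UMIs (Null), against 963100 to 5274578 in the other 6. With edgeR's quasi-likelihood test and Benjamini-Hochberg adjustment over 11599 genes (threshold 0.05), 424 genes were higher in delta cells than in the mean of alpha, beta and epsilon cells (3.66%) and 386 lower (3.33%), and the median log2 difference of all genes was -0.03. Against alpha cells alone 640 genes were higher (5.52%) and 599 lower (5.16%), against beta cells 528 (4.55%) and 647 (5.58%), and against epsilon cells 284 (2.45%) and 332 (2.86%). The 3 contrasts share the delta sums. Each class rests on n = 2 sums, 1 per library, and the libraries also differ in genotype. The p-values and standard errors (SE) use a spread estimated over all 8 sums and moderated across genes. It has 3 residual and a median of 15.3 prior degrees of freedom. They do not measure a spread between replicates of delta cells.

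Hhex separated delta cells from the other classes by far more than it differed between libraries. It had 1103 CPM in Control and 1467 CPM in Null delta cells, and between 11.0 and 43.6 CPM in the other 6 sums. The log2 difference was 5.77 ± 0.21 (SE, n = 2 sums, edgeR adjusted p = 9.98e-13). Of the genes higher than in each other class in both libraries, the 15 that stood farthest above the nearest class are named here, so that their delta sums lie above all others by the rule that named them. Cd24a, a membrane-anchored glycoprotein, had 876 and 953 CPM in delta cells (a UMI in all 50) and 26.4 to 137 CPM elsewhere, a log2 difference of 3.76 ± 0.17. Ptprz1, a receptor tyrosine phosphatase, had 159 CPM in both delta sums and at most 20.95 CPM elsewhere (5.49 ± 0.34). Its reads came from 14 Control and 9 Null cells, and without the cell with most Ptprz1 in each library the difference was 4.85. Shisal2b, a membrane protein gene, had 172 and 217 CPM in delta cells, from 15 cells in each library, and at most 28.5 CPM elsewhere (5.79 ± 0.24).

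The remaining higher genes were more modest and were found in most delta cells. Igfbp5, which binds insulin-like growth factors, had 383 and 348 CPM in delta cells (13.1 to 85.6 elsewhere, 3.26 ± 0.25). Ppp1r14c, an inhibitor of protein phosphatase 1, had 217 and 234 CPM (8.91 to 54.0 elsewhere, 3.46 ± 0.20). Scn3a, a voltage-gated sodium channel, had 146 and 130 CPM (12.3 to 29.1 elsewhere, 2.71 ± 0.22). Bambi, a decoy receptor of the TGF-beta family, stood at 2.24, Th, tyrosine hydroxylase of catecholamine synthesis, at 2.43, Glce, an epimerase of heparan sulfate synthesis, at 2.42, and Kctd8, an auxiliary subunit of GABA-B receptors, at 2.47. Stk32a (2.64), Vwa5a (2.48) and Epb41l4a (2.26) completed the set together with Ppy. Ppy had 1126 and 1629 CPM in delta cells and 87.5 to 293 CPM elsewhere (3.09 ± 0.12), but 49.6% of its Control and 37.3% of its Null delta UMIs came from 1 cell each, and without these cells the log2 difference was 2.34.

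**Figure D3:**
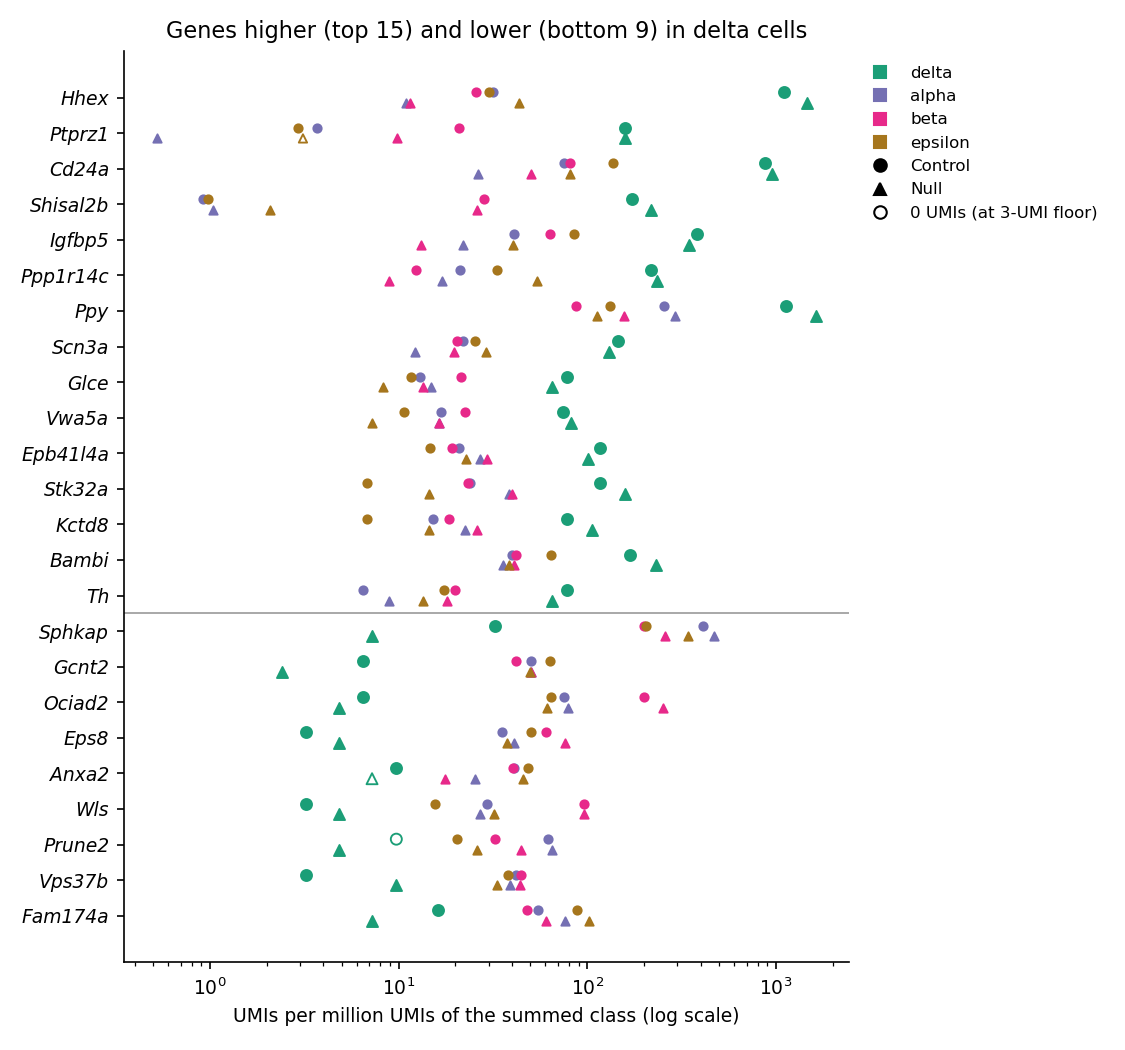
CPM of the summed class (horizontal axis, logarithmic) for the 15 named genes higher and the 9 named genes lower in delta cells. Circles are Control and triangles Null sums, colours are classes, and hollow symbols are sums with 0 UMIs drawn at a floor of 3 UMIs. The delta sums of Hhex lie at 1103 and 1467, and no other sum of that gene lies above 43.6.

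The 9 lower genes named here were close to absent from delta cells. Sphkap, an anchor of protein kinase A, had 32.5 and 7.24 CPM against 200 to 471 elsewhere (-4.09 ± 0.31, edgeR adjusted p = 3.33e-08). Ociad2 stood at -4.23, Gcnt2, a glycan-branching enzyme, at -3.61, Eps8, an actin regulator, at -3.56, and Wls, which carries Wnt proteins to the cell surface, at -3.26. Prune2, Fam174a, Vps37b and Anxa2 stood between -3.80 and -2.52. These genes other than Sphkap had at most 5 UMIs in either delta sum, so their size is set by few counts, and Anxa2 was no longer past the threshold without called doublets.

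Genes listed for delta cells, not all of them particular to delta cells, were in part already on. Of 12 listed genes 8 had enough reads to test. Of these 5 were higher than the mean of the other classes and none lower, where 3.66% of all genes were higher and 3.33% lower. The median log2 difference of the 8 was 1.42 beside -0.03 for all genes. Rbp4 (GRCm38 chromosome 19, 38116629 to 38125281, minus strand) had 11220 and 14750 CPM in delta cells and 2678 to 6591 elsewhere (1.75 ± 0.06). Spock3, a matrix proteoglycan, had 55.2 and 96.5 CPM against 1.62 to 9.35 (4.09 ± 0.35, from 10 and 14 cells). Casr, the calcium-sensing receptor, had 4 and 12 UMIs (13.0 and 29.0 CPM) against 2.73 to 6.23 CPM (2.42 ± 0.53). These 3 genes and Hhex were higher in both libraries. Pdx1, the fifth, had 247 and 323 CPM, above alpha (83.7 and 83.0) and epsilon (55.5 and 47.8) and below beta cells (511 and 623). Ucn3, a peptide of mature islets, and Ghsr, the ghrelin receptor of adult delta cells, had at most 1 UMI in each delta sum. Sstr3, a somatostatin receptor, stood at 0.46 and did not pass the test.

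The gene lists here and below are given by counts and medians, with no test of a list. Counts against the mean of the other classes are to be set beside the shares of all genes, 3.66% higher and 3.33% lower. Under at least 1 alternative fit or cell set, the calls of Adra2a, Anxa2, Ccnb2, Ccnd1, Celf4, Ctrb1, Dnajc12, Dusp6, Gabbr2, Gfra3, Mlxipl, Onecut2, Pnliprp1, Rab3b, Robo2, Slc2a2, Sox11, Spp1 and St18 were lost, so these rest on the setting chosen.

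The transcription factors shared by islet cells were present at unequal levels. Of 13 tested, 7 were higher and 3 lower (median 0.41), where 3.66% of all genes were higher and 3.33% lower. Isl1 had 1713 and 1930 CPM in delta cells, not past the test against epsilon cells (2074 and 2147, log2 difference -0.20, adjusted p = 0.22 in edgeR) and more than in alpha (828 and 1014) and beta cells (685 and 834). Myt1 (1.02), Insm1 (0.62), St18 (0.85), Mlxipl, Tshz1 (0.83) and Zbtb20 (0.41) were also higher than the mean of the other classes. Neurod1, needed for endocrine maturation, had 208 and 220 CPM against 375 to 573 elsewhere (-1.11 ± 0.12). Nkx2-2 (-1.07) and Pax6 (-0.45) were lower too.

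Genes of alpha and beta identity were mostly lower in delta cells. Of 15 alpha cell genes 12 were lower and 1, Meis2 (0.60), was higher, with a median of -2.21. Of all genes 3.33% were lower and 3.66% higher. Irx1 (1 UMI and 0 UMIs in delta cells, 278 and 309 CPM in alpha cells), Irx2 (-4.11) and Pou3f4 (-3.73) were nearly silent. Ttr, transthyretin, was lower at -1.08 but still had 1804 and 1875 CPM. Of 14 beta cell genes 6 were lower and 2 higher than in the mean of the other classes (median -1.14). Against beta cells alone 13 were lower, where 5.58% of all genes were lower. Slc2a2, the glucose transporter, had 6.49 and 2.41 CPM against 237 and 416 in beta cells, and Nkx6-1 had 51.9 and 96.5 CPM against 464 and 619. The Null level of Nkx6-1 rested on few cells, with a UMI in 8 of 24. The Null cell without Hhex held 19 of these UMIs and 1 other Null cell held 13. Mafa had UMIs in that cell without Hhex alone. Sytl4, a granule protein, had none in any delta cell. Against a floor of 3 UMIs in each library, it was at least 25.8-fold (Control) and 54.7-fold (Null) lower than in beta cells. Iapp went the other way, with 4303 and 5610 CPM, above alpha (2833 and 4685) and epsilon (415 and 752) and below beta cells (8924 and 13810). Pax4, a factor of beta and delta precursors, was higher at 3.12 ± 0.49, with UMIs in 5 Control and 6 Null delta cells. The delta cells thus had Hhex, Pdx1 and some Pax4 with little Irx1, Irx2, Mafa or Slc2a2.

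**Figure D4:**
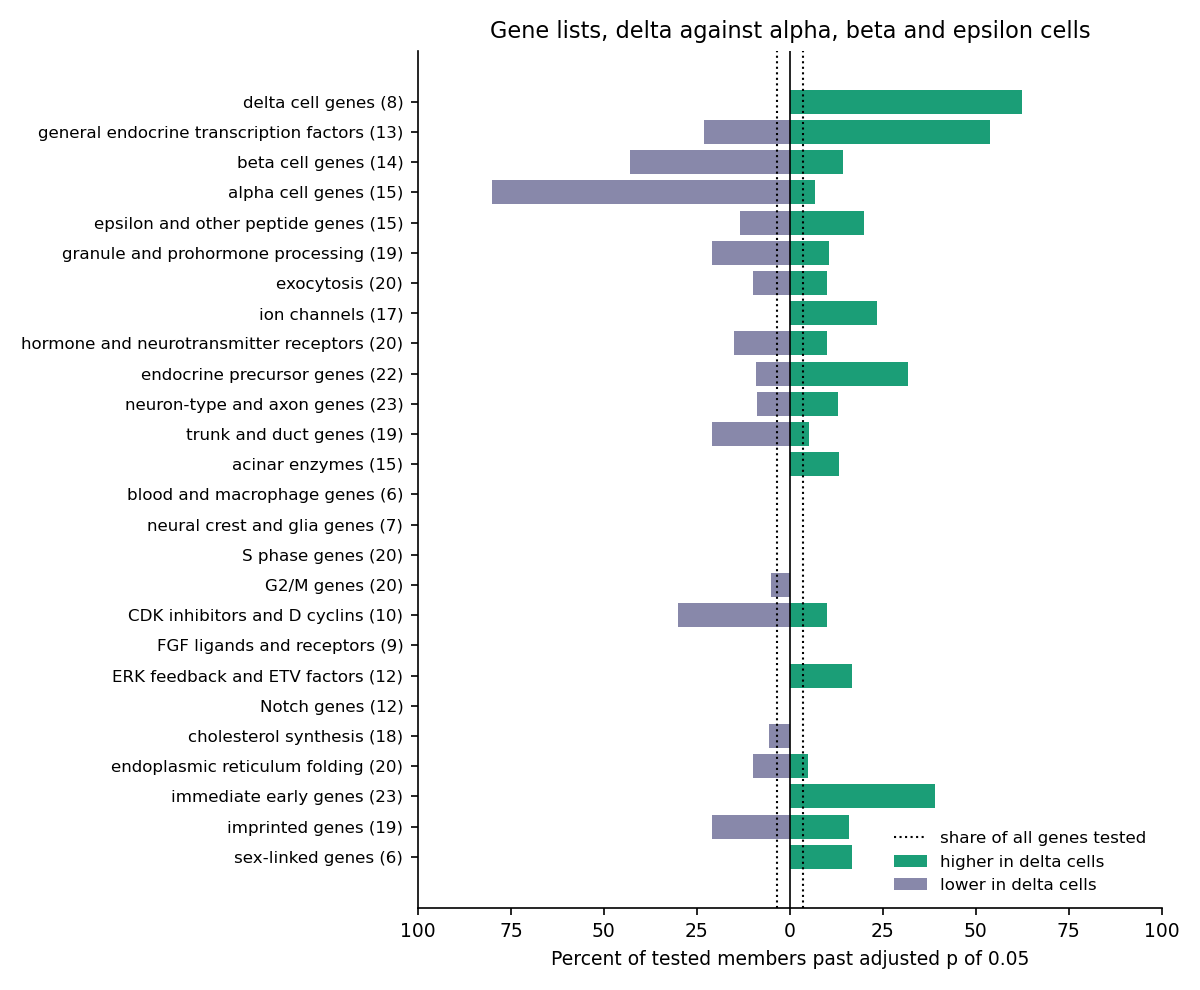
Percent of the tested members of each gene list (lists with at least 6 tested) that were higher (right) or lower (left) in delta cells than in the mean of alpha, beta and epsilon cells. Dotted lines mark the share of all 11599 genes, 3.66% higher and 3.33% lower. Alpha cell genes lie mostly to the left, and delta cell genes to the right.

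Among other peptide genes, 3 of 15 tested were higher and 2 lower (median -0.17), where 3.66% of all genes were higher and 3.33% lower. Pyy had 26510 and 21420 CPM in delta cells and 4347 to 12440 elsewhere (1.71 ± 0.13). Mboat4, the acyltransferase that activates ghrelin, had 61.7 and 72.4 CPM, far above alpha and beta cells (3.04 to 9.47) and below epsilon cells (172 and 140). Gast, gastrin, was lower at -2.48, with 185 and 109 CPM against 1277 to 2108 in alpha and epsilon cells, and Sct, secretin, at -0.96. Cck did not pass the test against the mean (-0.14).

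Genes of the secretory machinery went in both directions. Of 19 granule and prohormone-processing genes 2 were higher and 4 lower (median -0.21), where 3.66% of all genes were higher and 3.33% lower. Scg2 had 746 and 832 CPM against 243 to 764 elsewhere (0.81 ± 0.12), and Pcsk2, the convertase that trims many prohormones, had 1788 and 1510 CPM, close to alpha and beta cells (1669 to 1941) and above epsilon cells (366 and 381). Chga did not pass the test (-0.08), while Cpe (-0.62), Scg3 (-0.45), Pcsk1n (-0.53) and Dnajc12 (-0.88) were lower. Of 20 exocytosis genes 2 were higher, Cplx2 (0.76) and Rab3b (0.93), and 2 lower, Sytl4 and Cadps (-1.76 ± 0.20), which primes dense-core granules. Sytl4 had 251 and 396 CPM in beta cells but at most 8.76 CPM in alpha and epsilon cells, under the delta floor of 3 UMIs. Its call thus rests on beta cells. Folding genes of the endoplasmic reticulum lay between alpha and beta cells. Of 20, 10 were higher and none lower than in alpha cells, and 10 were lower and none higher than in beta cells. Of all genes 5.52% were higher than in alpha cells and 5.58% lower than in beta cells.

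Against the mean of the other classes, ion channel genes were higher or did not pass the test. Of 17 tested 4 were higher and none lower (median 0.24), where 3.66% of all genes were higher and 3.33% lower. Against beta cells alone 6 were higher and 1 lower. Against epsilon cells 4 were higher and none lower, with a median of -0.16. Kcnj11, the pore of the ATP-sensitive potassium channel, had 120 and 135 CPM against 44.4 to 86.3 elsewhere (1.16 ± 0.18), while its partner Abcc8 (282 and 294 CPM) did not pass the test (-0.19). Kcnmb2, a subunit of calcium-activated potassium channels, stood at 1.87, Cacna1h, a T-type calcium channel, at 1.79, and Scn3a is given above. Of 20 receptors 2 were higher, among them the adrenergic receptor Adra2a (1.87), which was nonetheless lower than in beta cells. Of the 3 called lower, Gfra3 stood at -1.17. Ffar1, the fatty acid receptor, had 0 UMIs in both delta sums, at least 9.33-fold and 16.3-fold lower than in beta cells against the floor of 3 UMIs. Gabbr2 also had 0 UMIs, but within the Control library alone, with 3 UMIs in place of 0, and after subtraction of free RNA its direction turned.

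Some genes of endocrine precursors, axons and the early response were higher than the mean of the other classes, and some precursor and axon genes were lower. Of 22 precursor genes 7 were higher and 2 lower (median -0.00), where 3.66% of all genes were higher and 3.33% lower. Against epsilon cells alone 4 were higher and 4 lower (median -0.03). Cdkn1a had 808 and 765 CPM in delta cells, close to epsilon cells (1123 and 866) and far above alpha and beta cells (62.6 to 103). Sox4 (0.88), Sox11 (1.21) and Runx1t1 (1.10) were higher than the mean of the other classes, and Fev did not pass the test (0.01). Of 23 genes of neurons and axons 3 were higher, Nefm, a neurofilament subunit (1165 and 1035 CPM against 51.0 to 731, 2.22 ± 0.12), Dcx (1.81) and Elavl4 (1.33), and 2 were lower, Celf4 (-0.75) and Robo2 (0 UMIs in delta cells). Robo2 had 23.1 and 24.5 CPM in beta cells but at most 7.83 CPM in alpha and epsilon cells. The delta floor of 3 UMIs is 9.74 and 7.24 CPM, so its call rests on beta cells. Of 23 immediate early genes 9 were higher and none lower (median 0.66). Fos had 1201 and 1033 CPM in delta cells against 279 to 618 elsewhere (1.55 ± 0.10), and Atf3 had 234 and 292 CPM against 25.1 to 118 (2.22 ± 0.32). These genes also respond to dissociation of tissue, and the part of that in their levels was not tested.

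Of 20 S phase genes none passed the test in either direction (median -0.34), and of 20 G2/M genes 1, Ccnb2, was lower (median -0.74). Lists of this size hold under 1 called gene in each direction at the shares of all genes, 3.66% and 3.33%, so these counts against the mean do not stand apart from the background. Against alpha cells alone 5 of the 20 G2/M genes were lower (median -1.21), where 5.16% of all genes were lower. Against beta cells 1 was lower and against epsilon cells 0. With 3 UMIs of Ccnb2 in all delta cells, its log2 difference of -2.25 turned to 0.71 once free RNA was subtracted. Mki67, a gene of dividing cells, had a UMI in 12 of 26 Control and 5 of 24 Null delta cells, and the part of free RNA in these was not tested. Of 10 CDK inhibitors and D cyclins, Cdkn1a was higher, and Ccnd2 (-2.36), Ccnd1 (-1.91) and Cdkn1c (-1.29) were lower. Among 19 imprinted genes, Mest (1.99), Dlk1 (1.37) and Meg3 (0.80) were higher, and Peg10 (-2.21), Cdkn1c, Grb10 (-1.20) and Gnas (-0.60) lower. Trunk and duct genes had 1 higher member of 19, Sox9 (227 and 258 CPM, 1.19 ± 0.22), and 4 lower, Spp1 (-2.11), Onecut2 (-1.91), Anxa2 and Krt8 (-0.63).

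Genes of FGF signaling were read for their level in delta cells. Of 9 tested FGF ligands and receptors none passed the test in either direction, which is near what the shares of all genes (3.66% and 3.33%) give for so short a list. Of 12 ERK feedback and ETV genes Dusp6 (1.54, from 6 Control and 21 Null UMIs) and Egr1 (1.04) were higher. No tested Notch gene (12) passed, and 1 of 18 cholesterol synthesis genes was lower. Fgf9 (ENSMUSG00000021974, GRCm38 chromosome 14, 58070547 to 58112720, plus strand) had 8 UMIs in 7 Control delta cells (26.0 CPM, with 6.47 in alpha, 9.41 in beta and 22.4 in epsilon cells) and 0 in Null delta cells. Null hormone cells held 1 Fgf9 UMI in all, in beta cells. Where in the gene the cassette sits is not stated in the labels, and reads near the 3' end may fall elsewhere, so these counts do not test the allele.

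Markers of other tissues were scarce in delta cells. The summed level of 8 mesothelial genes was 3.25 and 0 CPM, with 7 and 8 of them at 0, and 11 mesenchyme genes summed to 90.9 and 62.7 CPM, with 4 and 5 at 0. Endothelial (22.7 and 41.0), blood (48.7 and 62.7) and neural crest genes (38.9 and 31.4) were as scarce. Acinar enzymes were more frequent, at 3897 CPM in Control and 2425 CPM in Null delta cells, beside 2914 to 3836 and 1667 to 1980 CPM in the other classes, and 2 of 15 tested were higher in delta cells, Ctrb1 (0.53) and Pnliprp1 (0.42). If all of these enzyme reads were free RNA with the makeup of the whole library, free RNA was up to 26.0% of UMIs in Control and 9.02% in Null delta cells (19.4% to 25.6% and 6.20% to 7.36% in the other classes).

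Between the genotypes, few abundant genes of delta cells differed by 2-fold or more. Of 1276 genes with at least 100 UMIs over both, 5 were at least 2-fold higher in Null cells (0.392%) and 5 at least 2-fold lower (0.392%), and the median log2 ratio of Null over Control CPM was 0.04. With 1 library of each genotype these ratios carry no test, and the intervals are exact 95% intervals of counting error only. The abundant genes of delta cells named next lay within 2-fold. Hhex had 1103 CPM in Control and 1467 in Null cells (log2 0.41, 0.22 to 0.61), Isl1 1713 and 1930 (0.17, 0.01 to 0.33), Rbp4 11220 and 14750 (0.39, 0.33 to 0.45) and Pyy 26510 and 21420 (-0.31, -0.35 to -0.26). Iapp stood at 0.38 (0.28 to 0.48), Pdx1 at 0.39 (-0.03 to 0.82), Nefm at -0.17 (-0.38 to 0.04) and Cdkn1a at -0.08 (-0.32 to 0.17). Among the rarer delta cell genes, Spock3 stood at 0.81 (-0.04 to 1.72), and Casr, with 4 and 12 UMIs, at 1.16 (-0.56 to 3.25), so their ratios are not resolved at this depth.

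The 16 named genes, 8 in each direction, are those whose ratio stood farthest from 0 by its counting interval. Chgb, chromogranin B of dense-core granules, had 1431 CPM in Control and 3390 CPM in Null delta cells (log2 1.24, 1.09 to 1.40). This ratio rested on few cells. The 4 Null cells with most Chgb, at 161 to 280 UMIs each, held 939 of the 1405 Null UMIs (66.8%), and the other 20 Null cells stood at 1443 CPM. Without the 4 highest cells of each library, chosen after their values were seen, the levels were 1133 CPM in Control and 1443 CPM in Null cells (log2 0.35). The per-cell medians, 1409 and 1612 CPM, also lay closer together than the sums. Maged2 (114 and 294 CPM, 1.37, 0.82 to 1.96), Basp1, a membrane protein of growth cones (81.1 and 239 CPM, 1.56, 0.91 to 2.25), Rtn4 (1.20) and Bdp1 (1.18) were the other genes past 2-fold higher. Pdia3, a disulfide isomerase of the endoplasmic reticulum, had 818 and 1303 CPM (0.67, 0.45 to 0.89), and ratios of 0.33, 0.63 and 0.52 in alpha, beta and epsilon cells. Emb (0.82) and Pnmal2 (0.94) were higher as well. Among 20 folding genes 12 were higher and 8 lower in Null delta cells (median 0.29), and among 16 granule genes 12 were higher (median 0.16). Of all 5661 genes with at least 20 UMIs, 3155 were higher and 2506 lower (median 0.06), so a majority of higher genes is not particular to these lists.

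Among the genes lower in Null delta cells, Cck stood at -0.87 (-1.26 to -0.48), with 432 CPM in Control and 237 CPM in Null cells. Cpa1, a carboxypeptidase of acinar cells, had 519 and 186 CPM (-1.48, -1.89 to -1.08), Pnliprp1 stood at -0.85, and all 8 acinar enzymes with at least 20 UMIs were lower (median -0.73, with -0.93 in alpha, -1.31 in beta and -0.69 in epsilon cells). The free RNA share, 9.02% in Null and 26.0% in Control delta cells, was estimated from these same enzyme reads, so it is not a separate observation. Its subtraction removes the enzyme reads as a sum by construction. The value of Cpa1 after it, -0.72, is shaped by that. Hmgb2, a chromatin protein of dividing cells, had 360 and 133 CPM (-1.44, -1.93 to -0.96; -0.72 after that subtraction), H2afz stood at -0.98 (-0.00 after it) and Rps2 at -0.80 (-0.16). Of these, Rpl29, a ribosomal protein gene, kept its size, with 802 and 306 CPM and -1.39 before and -1.36 after subtraction, and it was lower in all 3 other classes (-0.83 in alpha, -0.94 in beta and -0.96 in epsilon cells). Xist, which silences an X chromosome in female cells, had 160 UMIs in 15 Control delta cells and 0 in Null cells, while the Y-linked Ddx3y had 35.7 and 130 CPM and Eif2s3y 26.0 and 77.2 CPM. The sexes pooled in each library thus differed among delta cells too. Set against the 11 Control delta cells without a Xist UMI, an alternative chosen after the data were seen, all 15 other named genes kept their sign. The ratio then stood at 0.96 for Chgb, -0.50 for H2afz and -1.40 for Cck, and moved by less than the counting error for the other 12. A cell without a Xist UMI need not be male, and the part of sex in the remaining differences was not tested.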

How the data were processed

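Single-cell RNA was captured with the 10x Genomics 3' assay from 1 Control and 1 Null pool. The authors deposited raw UMI counts, whole numbers for each gene in each barcode, written by Cell Ranger per the file headers. The submitters' processing notes name bcl2fastq, Cell Ranger 6.1.1, Seurat 3.2.3 and mm10. Whether counting used strand, and the annotation, are not given in the sources used here, so Tsix and Xist cannot be told apart.

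Delta cells and the gene lists were chosen with earlier results of these data known. Alpha, beta and epsilon cells met the mirrored rule with their own hormone. Counts were summed per library and class, leaving out the 11 genes of the rule, mitochondrially encoded and haemoglobin genes. The edgeR fit (4.0.16, limma 3.58.1, R 4.3.3; TMM scaling, library as covariate) used genes with at least 20 UMIs over the 8 sums and at least 5 CPM in 2 sums. On simulated counts for these 11599 genes, it recovered 40% of 100 genes changed 2-fold and 74% of 100 changed 4-fold, and called 0.0547% of unchanged genes. Alternatives were DESeq2 1.42.0, its size factors, no filter, other cell sets, each library alone and free RNA subtracted.

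Named genes were past the threshold, above (or below) each other class in both libraries with at least 20 UMIs in the highest class, and ranked by the smallest ratio, predicted models left out. Null over Control used genes with at least 100 UMIs, ranked by the interval bound nearest 0, first 8 each way. List members are also named. A few genes that met these rules are not reported here. Of 489 list symbols 486 matched. Ratios from 0 UMIs use a floor of 3 UMIs per library. Doublets were called with Scrublet (scanpy 1.11.5, Python 3.11.15) and removed only as an alternative. Coordinates are GENCODE vM21 on GRCm38, where 32158 of 32285 features (99.6%) matched by identifier. Trypsinogen genes with near-identical copies were not named. UMI totals per delta sum and intervals in the text cover counting error only.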

Additional observations from a re-analysis of the deposited data

Results flagged for a closer look

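Ratios of Null over Control went in opposite directions in delta cells and in another hormone class for 3 of the 16 named genes, with counting intervals on opposite sides of 0. Each class holds 1 library of each genotype, so the difference between classes was not tested.

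Chgb, chromogranin B, stood at 1.24 (1.09 to 1.40) in delta cells and at -0.52 (-0.67 to -0.37) in epsilon cells, where it had 906 CPM in Control and 631 CPM in Null. In alpha (0.44) and beta cells (0.26) it was higher in Null, as in delta cells. The delta value rests on few cells, since 4 of the 24 Null cells held 66.8% of the Null UMIs and without the 4 highest cells of each library it stood at 0.35. The epsilon value leans on 1 Control cell, which held 486 of the 931 Control epsilon UMIs. Median Chgb per 10000 was 3.21 in Control and 4.10 in Null epsilon cells, so the medians went the other way from the epsilon sums. Maged2 stood at 1.37 (0.82 to 1.96) in delta cells and at -0.62 (-0.78 to -0.46) in epsilon cells, with 832 CPM in Control and 543 CPM in Null epsilon cells. Cck stood at -0.87 (-1.26 to -0.48) in delta cells and at 0.17 in alpha cells, where it had 353 CPM in Control and 396 CPM in Null.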

How the results depend on the processing

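No paired analysis was possible because each genotype is 1 pooled library and the labels carry no replicate numbers. The counts of genes higher or lower in delta cells against the mean and against each class stayed within 1.5 times under every alternative run (424 and 386 with edgeR, 411 and 262 with DESeq2's Wald test). Of 121 listed genes with a call, 46 results over all alternatives were no longer past the threshold, and 190 kept their sign but moved by more than the SE. Of these, 51 moved with free RNA subtracted, 71 within Control alone, 59 within Null alone and 9 without the top cell. The top cell was left out only for the 25 named genes, so 9 of those 25 moved. A direction turned for Gabbr2 (0.586 within Control alone, 0.219 with free RNA subtracted) and Ccnb2 (0.711 with free RNA subtracted). The number of genes at least 2-fold higher in Null delta cells, 5, was 10 with Sst of at least 50 per 10000, 0 after thinning, 13 with free RNA subtracted and 229 with at least 20 UMIs. The number lower, 5, was 0, 9 and 164 in the last 3, so it depends on the depth required. Delta cells were 0.181% (Control) and 0.310% (Null) of all barcodes passing the UMI and mitochondrial limits. Unthinned, delta cells with a UMI were 80.77% and 70.83% for Gcg, 69.23% and 58.33% for Ins1, 80.77% and 95.83% for Ins2, 76.92% and 66.67% for Cck, and in Null 29.17% for Ghrl, 62.5% for Ppy and 33.33% for Gast. In an alternative chosen after the data were seen, leaving out each library's cell with most UMIs of the gene kept the sign of all 25 named class differences, and moved Null over Control of Pnliprp1 from -0.85 to -1.51. With 50 cells, genes under about 20 UMIs in a delta sum are read with wide counting error.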

Other observations

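A set of endocrine barcodes outside the delta cells also carried Hhex. Barcodes with at least 5 Hhex UMIs per 10000 and at least 20 of Chga, Chgb, Pcsk2 and Isl1 together, limits chosen after the data were seen, numbered 59 in Control and 40 in Null. Of these, 24 and 23 were delta cells, 5 and 2 were alpha, beta or epsilon cells, and 30 and 15 belonged to no hormone class. Among the last, Sst was at 0 UMIs in 25 Control and 10 Null barcodes, between 0 and the limit in 2 and 4, and above the limit in 3 and 1 that failed another part of the rule. Of the 27 Control and 14 Null barcodes under the Sst limit, 10 and 2 failed the acinar limit and 4 and 3 the Neurog3 limit, which every delta cell had to pass.

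The 27 Control and 14 Null barcodes under the Sst limit were set beside the delta cells by their medians per 10000, as a description. Hhex lay at 12.3 and 9.53, near the 10.2 and 12.2 of delta cells. Rbp4 lay at 36.2 and 21.4, below 102 and 141, and Pyy at 93.4 and 155, below 232 and 219. Iapp (0.82 and 2.56, against 31.2 and 27.5) and Pcsk2 (0.82 and 4.57, against 17.6 and 11.9) were lower in these barcodes. Fev, a factor of endocrine precursors, was higher at 4.30 and 1.17, against 0.61 and 0, and Cldn4, a tight junction gene, at 1.86 and 1.67, against 0 and 0.49. The part of the acinar and Neurog3 limits in these differences was not tested. Chga lay at 13.9 and 13.3, against 9.65 and 7.82. The limits that chose these barcodes use Hhex and the sum of Chga, Chgb, Pcsk2 and Isl1, so the levels of all 5 genes are shaped by the choice.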
